A study of Mus musculus with 6 samples.

Results

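The oligoadenylate synthetase (OAS) family was followed in RNA-seq libraries labelled as mouse kidney tissue after ischaemia and reperfusion (I/R). In I/R the blood flow of the kidney is stopped and then restored. The members were 8 genes chosen by name, Oas1a, Oas1b, Oas1c, Oas1g, Oas2, Oas3, Oasl1 and Oasl2, and all 8 had a row among the 25189 gene symbols of the count table. The family was picked for study because its counts were already known to differ between the groups, so the comparison of these counts between groups is given as a description and supports nothing. One group of 3 libraries came from mice with I/R that also received chemerin-9 (C9 in the labels), a peptide agonist derived from the C-terminus of the adipokine chemerin. The other group of 3 libraries came from mice with I/R alone. Both groups were labelled as male, wild-type C57BL/6 kidney on day 2, and every mouse in the comparison had I/R, so no uninjured kidney was analysed here. The labels give neither its dose nor its route.

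OAS enzymes sense double-stranded RNA, the usual trace of a virus in the cytosol. When bound to it, an active OAS joins ATP into short 2'-5'-linked chains of adenylate (2-5A), a second messenger of the antiviral state. The genes are classic targets of type I interferon: the receptor activates JAK kinases, and a complex that includes STAT2 and IRF9 binds interferon-stimulated response elements, built from GAAA repeats, near the start of the gene. The mouse has a row of Oas1 paralogues, of which Oas1a and Oas1g encode active enzymes. Oas2 and Oas3 carry repeated OAS units in one protein. Oasl1 and Oasl2 end in ubiquitin-like domains, and mouse Oasl1 is known as an inactive synthetase that holds back translation of the interferon regulator Irf7.

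The promoter stretches of the members are shown first, because the spacing of their GAAA repeats is a feature that the counts did not enter. RefSeq promoter windows (GRCm38.p6, 250 bases before to 50 after the gene start) were found for 6 of the 8 members, and Oas1b and Oas2 had no entry. Each stretch below has 120 bases and runs 5′ to 3′ on the strand of the gene. Capitals mark matches to GAAANNGAAA on either strand, or in Oasl1 matches to the shorter AANNGAAA.
Oas1a, chr5:120907526-120907645, minus strand: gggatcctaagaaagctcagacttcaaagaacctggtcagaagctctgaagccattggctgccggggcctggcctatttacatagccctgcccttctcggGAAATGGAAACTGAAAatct
Oas1g, chr5:120887614-120887733, minus strand: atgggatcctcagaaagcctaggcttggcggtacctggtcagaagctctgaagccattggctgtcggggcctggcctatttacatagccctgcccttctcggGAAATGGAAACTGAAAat
Oas1c, chr5:120812545-120812664, minus strand: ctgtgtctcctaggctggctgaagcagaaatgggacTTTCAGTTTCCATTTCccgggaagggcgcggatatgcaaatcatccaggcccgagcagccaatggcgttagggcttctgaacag
Oas3, chr5:120777660-120777779, minus strand: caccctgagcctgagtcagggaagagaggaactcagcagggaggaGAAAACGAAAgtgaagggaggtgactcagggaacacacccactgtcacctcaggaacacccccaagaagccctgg
Oasl1, chr5:114923050-114923169, plus strand: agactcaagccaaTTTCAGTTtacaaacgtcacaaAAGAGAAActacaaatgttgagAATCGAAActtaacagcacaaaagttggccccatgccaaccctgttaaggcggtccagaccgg
Oasl2, chr5:114896814-114896933, plus strand: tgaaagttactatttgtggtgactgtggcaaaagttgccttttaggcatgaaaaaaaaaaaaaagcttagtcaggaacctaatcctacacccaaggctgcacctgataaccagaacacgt

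Of the 6 windows, 4 held GAAANNGAAA, those of Oas1a, Oas1g, Oas1c and Oas3, whereas 3.44% of all 32851 windows held it. Oas1a and Oas1g had the same overlapping pair of matches, GAAATGGAAA and GAAACTGAAA, beginning at base -20 from the start in Oas1a and at base -18 in Oas1g. Over the aligned windows these genes were 85.3% identical. Oas1c held the same pair on the opposite strand, from base -114 to base -99. The stretch shown for Oas1c also holds the start of Oas1b, at base 120812635 on the plus strand. The pair lies upstream of that start on the strand of Oas1b, so it cannot be assigned to Oas1c alone. Oas3 held 1 match, from base -75 to base -66. Oasl1 had no GAAANNGAAA but 3 matches to AANNGAAA, a string that 23.9% of all windows held and that every GAAANNGAAA match also contains. The window of Oasl2 held neither string. The palindromic STAT site TTCNNNGAA was found in 1 member window, that of Oas1a, and in 8.30% of all windows. A match is a string of letters and not a measured binding site.

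All 8 members lie on chromosome 5 (GRCm38), in 2 clusters. Oasl2 (114896936 to 114912234, plus strand) and Oasl1 (114923240 to 114937915, plus strand) share a cluster of 40.98 kb. The other 6 span 177 kb, in the order Oas2 (120730333 to 120749853, minus strand), Oas3 (120753098 to 120777661, minus), Oas1c (120800194 to 120812514, minus), Oas1b (120812635 to 120824163, plus), Oas1g (120876142 to 120887613, minus) and Oas1a (120896256 to 120907521, minus). GENCODE M21 types Oas1b as a polymorphic pseudogene and the others as protein coding. C57BL/6 is known to carry the truncated form of Oas1b.

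The libraries held 11217252 to 14004529 counts with chemerin-9 and 13069464 to 16938301 in I/R. The table heads the treated columns IC, whereas the labels say that the columns of these samples are named S, so the names conflict. IC was taken to stand for I/R plus C9, and every statement on chemerin-9 rests on that reading. Whether the libraries are from separate mice is not stated, so errors and p-values measure the spread between libraries, which may be technical. Batch values differ for all 6 libraries, so batch and treatment cannot be told apart. The I/R replicate 3 library differed from its group more than the others did, at a chi-square over degrees of freedom of 5.14 and 5.61, where the other I/R libraries gave 1.80. Defining markers of kidney cells were scarce in these libraries labelled kidney tissue. Of 16 nephron markers 8 had a row, and they summed to 33.4 to 39.9 CPM (a count scaled to a common library size, with TMM factors) with chemerin-9 and 51.0 to 53.9 CPM in I/R, mostly from Pax8, an early kidney lineage factor. Of 6 endothelial markers 2 had a row and summed to 0.436 to 1.33 CPM with chemerin-9 and 0.425 to 0.861 CPM in I/R. The 7 fibroblast and matrix genes reached 1298 to 1340 CPM with chemerin-9 and 1358 to 1415 CPM in I/R. The 5 genes of dividing cells, Top2a the highest, reached 3177 to 3276 CPM with chemerin-9 and 3326 to 3468 CPM in I/R. Single genes did not all follow these sums: Col1a1 held 800.2 ± 20.5 CPM with chemerin-9 and 771 ± 28.2 CPM in I/R, and Top2a held 1757 ± 45.4 CPM with chemerin-9 and 1752 ± 46.8 CPM in I/R. The nephron, fibroblast and dividing cell sums were all lower with chemerin-9, and their part in the results below was not tested.

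Summed over the 8 members, the family held 57.3, 54.8 and 56.2 CPM in the libraries with chemerin-9, against 244, 239 and 243 CPM in I/R. The summed level was 4.32 times as high in I/R. Replicates lay close together, at 56.1 ± 1.30 CPM with chemerin-9 and 242 ± 2.56 CPM in I/R (SD, n = 3 each), and the groups did not overlap. In bulk RNA, fewer cells that express a gene and less RNA per cell cannot be told apart. Of 15 leukocyte markers 5 had a row, none of them at 0 in all libraries. They summed to 4.53 to 6.78 CPM with chemerin-9 and 4.67 to 6.09 CPM in I/R. So few markers at so low a level cannot show whether leukocyte content differed, and its part in the family's values was not tested. The most abundant of these markers was Cd68, at 3.504 ± 0.825 CPM with chemerin-9 and 3.24 ± 0.355 CPM in I/R.

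**Figure D1:**
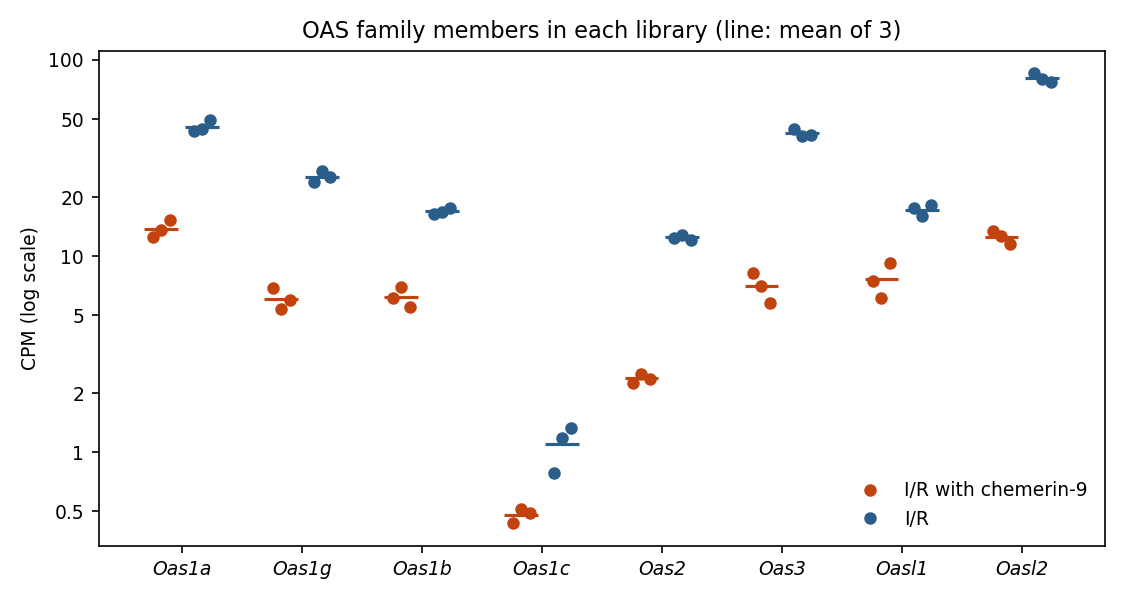
CPM of each OAS family member on a log axis. Each point is 1 library, orange for I/R with chemerin-9 (left of each pair) and blue for I/R, and the line is the mean of 3. The 3 orange points lie below the 3 blue points for each of the 8 members, from Oas1c near 1 CPM to Oasl2 at 77.3 to 85.6 CPM in I/R.

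Among the active Oas1 synthetases, Oas1a held 12.5, 13.6 and 15.3 CPM with chemerin-9, against 43.2, 44.5 and 49.2 CPM in I/R (fitted log2 fold change -1.72, standard error 0.088). Its neighbour Oas1g held 6.88, 5.38 and 5.95 CPM with chemerin-9, against 23.96, 27.0 and 25.4 CPM in I/R (log2 fold change -2.07, standard error 0.113). For both genes every chemerin-9 library was below every I/R library. The longest coding transcripts of the 2 genes were 97.6% identical over 1861 aligned positions. Of all 50-base windows in the Oas1a transcript, 57.6% also occurred in Oas1g, and 54.1% of those in Oas1g occurred in Oas1a. How reads were divided within the pair is therefore uncertain. Added together the pair held 19.4, 18.9 and 21.3 CPM with chemerin-9 and 67.2, 71.5 and 74.5 CPM in I/R. This sum does not depend on how reads were divided between the 2 genes. Whether reads matching both genes were counted at all is not known here, so the sum may be too low.

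The remaining Oas1 members are Oas1b and Oas1c. Oas1b, the resistance factor to flaviviruses in mice with a full-length allele, held 6.10, 6.93 and 5.53 CPM with chemerin-9, against 16.4, 16.8 and 17.7 CPM in I/R (log2 fold change -1.46, standard error 0.119). Its groups did not overlap, and 3.20% of its 50-base windows occurred in another gene. Oas1c, an Oas1 paralogue without known synthetase activity, was near the detection limit, with 5, 7 and 7 counts in the chemerin-9 libraries and 10, 16 and 22 counts in I/R. Its levels were 0.436, 0.516 and 0.490 CPM with chemerin-9, against 0.783, 1.19 and 1.34 CPM in I/R (log2 fold change -1.19, standard error 0.399). Oas1c passed the filter on low counts only through its I/R libraries, so it had to be higher there to be tested at all. Of its 50-base windows 10.7% occurred in other genes, most of them in Oas1e.

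The genes with repeated OAS units had lower fold changes than the Oas1 genes. Oas3, whose product makes 2-5A on long double-stranded RNA, held 8.19, 7.07 and 5.81 CPM with chemerin-9, against 44.5, 40.8 and 41.6 CPM in I/R (log2 fold change -2.60, standard error 0.106). Oas2 held 2.27, 2.51 and 2.38 CPM with chemerin-9, against 12.4, 12.9 and 12.1 CPM in I/R (log2 fold change -2.38, standard error 0.147). Both sets of 3 were far from overlap. Hardly any sequence of these transcripts was shared, with 0.471% of the 50-base windows of Oas3 and none of those of Oas2 found in another gene.

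The OAS-like pair stood at the ends of the range in the edgeR fit with all libraries. The place of Oasl1 was not stable, since with limma-voom it was at -1.20 and Oas1c at -1.12. Oasl2, a mouse OAS-like protein with synthetase activity, held 13.4, 12.7 and 11.5 CPM with chemerin-9, against 85.6, 80.2 and 77.3 CPM in I/R (log2 fold change -2.70, standard error 0.074). It ranked 9 among all 14184 tested genes when these were ordered from the lowest fold change up. Oasl1 held 7.49, 6.12 and 9.23 CPM with chemerin-9, against 17.6, 16.0 and 18.2 CPM in I/R (log2 fold change -1.18, standard error 0.136), at rank 226. The chemerin-9 libraries held 1.79, 2.07 and 1.24 counts of Oasl2 per count of Oasl1, in replicate order, and the I/R libraries held 4.86, 4.995 and 4.24. Neither transcript shared a 50-base window with another gene.

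In all, 8 of 8 members passed the filter on low counts. By edgeR's quasi-likelihood test with Benjamini-Hochberg adjustment over all tested genes, 8 were lower with chemerin-9 at an adjusted p under 0.05 and none was higher. The background is large: 26.1% of the tested genes were called lower and 51.7% in either direction. The groups did not overlap for the 8 members, with lower values for chemerin-9, as for 29.2% of the tested genes (58.5% in either direction). Under the alternatives, 7 or 8 members were called lower, beside these shares of genes called lower: 26% with RLE factors, 20.4% with library totals, 22.1% with DESeq2, 25.7% with limma-voom, 16% with no filter and 26% with the replicate block. The shares were 22.5%, 22.7% and 22.2% without each chemerin-9 library in turn and 23.9%, 23.7% and 25.4% without each I/R library. Of all genes called, 49.6% were higher, and with library totals 60.7%. The median log2 fold change of the members was -1.90, ranging from -2.70 to -1.18, beside -0.0037 over all tested genes. Fold changes of -1 or lower were found in 8 members and in 2.62% of the tested genes. Since the family was chosen on this contrast, these counts are not evidence about it.

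**Figure D2:**
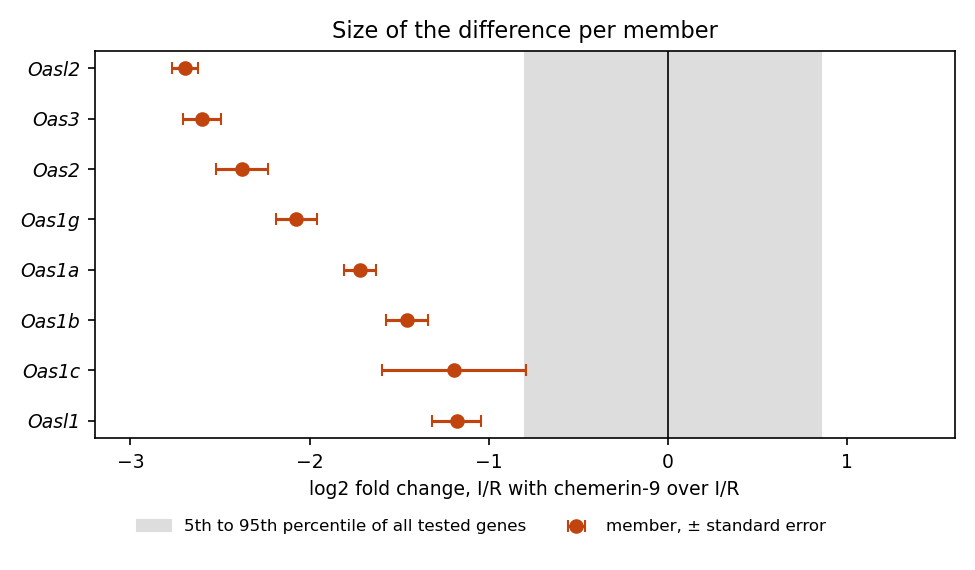
Fitted log2 fold change of each member, I/R with chemerin-9 over I/R, with its standard error as the bar. The grey band runs from the 5th to the 95th percentile of the 14184 tested genes, -0.80 to 0.86, and all 8 point estimates lie to its left, from Oasl1 at -1.18 to Oasl2 at -2.70.

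Levels were compared between members per kb of exon, with the exon length taken as the union of GENCODE M21 exons. Much of the Oas1a and Oas1g transcripts is shared, so their levels per kb and places in the order are uncertain. With chemerin-9, Oas1a led at 7.33 ± 0.743 CPM per kb, followed by Oas1b at 3.10 ± 0.354, Oasl1 at 2.92 ± 0.599 and Oas1g at 2.59 ± 0.325 CPM per kb (SD, n = 3). The libraries of Oas1b and Oasl1 overlapped in this level, as did those of Oasl1 and Oas1g. Next came Oasl2 at 1.96 ± 0.154, Oas3 at 0.994 ± 0.169, Oas2 at 0.535 ± 0.027 and Oas1c at 0.200 ± 0.017 CPM per kb, none overlapping the next. In I/R the order was Oas1a at 24.2 ± 1.66, Oasl2 at 12.7 ± 0.662, Oas1g at 10.9 ± 0.661 and Oas1b at 8.52 ± 0.315 CPM per kb. There followed Oasl1 at 6.63 ± 0.427, Oas3 at 5.98 ± 0.273, Oas2 at 2.80 ± 0.082 and Oas1c at 0.458 ± 0.119 CPM per kb. Among the I/R libraries only Oasl1 and Oas3 overlapped as neighbours in this order.

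As a share of the summed level per kb, Oasl2 made up 10.02% ± 1.04 of the family with chemerin-9 and 17.6% ± 1.27 in I/R (SD, n = 3 each). Oas3 made up 5.08% ± 0.965 with chemerin-9 and 8.30% ± 0.494 in I/R. The shares ran the other way for Oasl1, at 14.8% ± 2.56 with chemerin-9 and 9.18% ± 0.499 in I/R, and for Oas1b, at 15.9% ± 2.30 with chemerin-9 and 11.8% ± 0.173 in I/R. The 2 groups of libraries did not overlap in any of these shares. Oas1a was the largest part in every library, at 34.2% to 39.95% with chemerin-9 and 32.3% to 35.2% in I/R. Here the groups overlapped. The shared sequence of Oas1a and Oas1g makes these shares uncertain too.

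**Figure D3:**
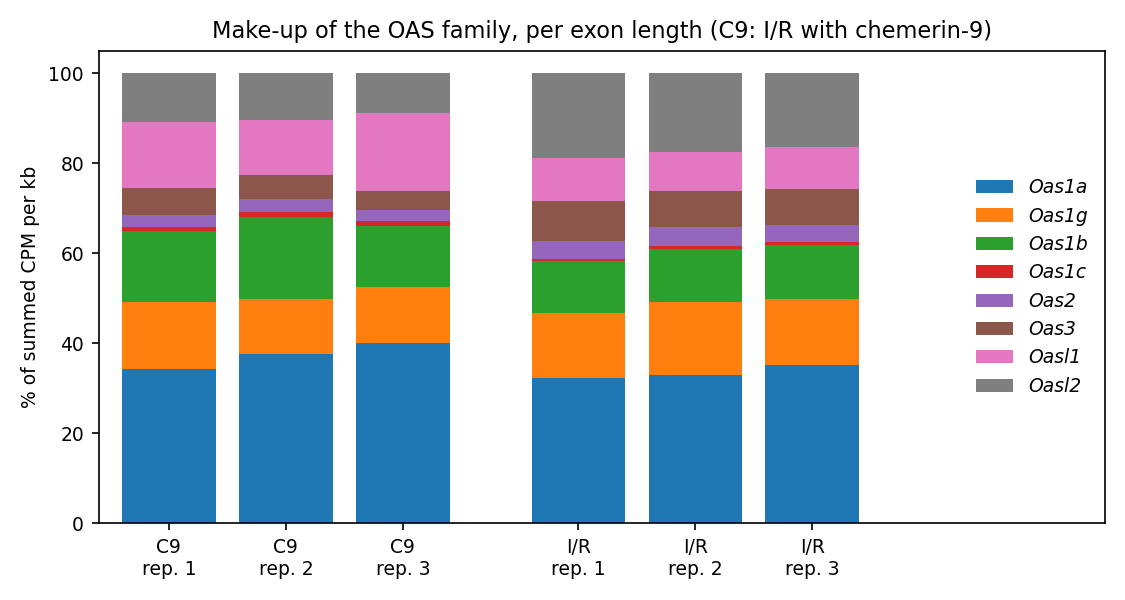
Share of each member in the summed CPM per kb of the family, 1 bar per library, with the I/R with chemerin-9 libraries (C9) left of the I/R libraries. Bars run from 0 to 100%. Oasl2, the top segment, covers 8.85% to 10.8% of the chemerin-9 bars and 16.4% to 18.9% of the I/R bars.

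Within each group, the members did not move up and down as 1 block. In the chemerin-9 group the highest library was replicate 1 for 3 members, replicate 2 for 3 and replicate 3 for 2. In the I/R group it was replicate 1 for 2 members, replicate 2 for 2 and replicate 3 for 4. Some members shared an order: in I/R replicate 1, Oas1a, Oas1b, Oas1c and Oas1g were all at their lowest. Oas3 and Oasl2 were at their highest there. The part of count noise in these orders was not tested. In the I/R replicate 3 library, which stood apart over all genes, Oas1a was at its highest of the group and Oasl2 at its lowest. The widest spread between chemerin-9 libraries was that of Oasl1, 0.58 on the log2 CPM scale, and in I/R that of Oas1c, 0.67, whose counts were the fewest.

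Of 4 remaining Oas1 paralogues looked for, 2 had a row in the count table, Oas1d and Oas1h. Oas1e and Oas1f had no row under these symbols. Oas1h, the only one tested, held 11, 13 and 16 counts with chemerin-9 and 32, 18 and 11 counts in I/R, and was not called by edgeR (adjusted p = 0.33), with a log2 fold change of -0.52 and a standard error of 0.43. Its fold change was 0.046 without I/R replicate 1, so even its direction rests on that library. Oas1d had 6 counts in all with chemerin-9 and 16 in I/R and did not pass the filter. Both lie inside or next to the same cluster as the 6 members.

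Genes around the members were examined in the same fit, within 200 kb of either cluster. The counts below stand beside 26.1% of all tested genes called lower, 25.6% higher and 51.7% in either direction. Around the Oas1, Oas2 and Oas3 cluster 6 other genes were tested, Oas1h included, of which 2 were lower with chemerin-9 and none was higher. These were Slc8b1, a mitochondrial cation exchanger (log2 fold change -0.64, adjusted p = 1.3e-04, edgeR), and the weakly expressed 2510016D11Rik (log2 fold change -1.28, adjusted p = 0.0088, edgeR). The latter held 6, 7 and 12 counts with chemerin-9 and 25, 17 and 24 in I/R. Its chemerin-9 libraries alone would not have passed the filter on low counts. Ddx54, an RNA helicase of ribosome assembly and the tested gene nearest to Oas2, held 68.7 ± 2.47 CPM with chemerin-9 and 72.95 ± 2.68 CPM in I/R and was not called (adjusted p = 0.166, edgeR). Around the Oasl cluster 9 other genes were tested, of which 3 were higher and 4 lower. Of these 9, Rpl37rt had the largest fold change, at -1.28, and the others that passed lay between -0.46 and 0.36. Rpl37rt held 18.5 ± 3.98 CPM with chemerin-9 and 44.7 ± 24.7 CPM in I/R, where replicate 3 had 1205 counts and the other libraries 409 and 390. Without I/R replicate 3 its fold change was -0.71 and it was still called. The median log2 fold change of the other genes was -0.13 around Oasl and -0.47 around the Oas cluster. These windows and genes were chosen after the data were seen.

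**Figure D4:**
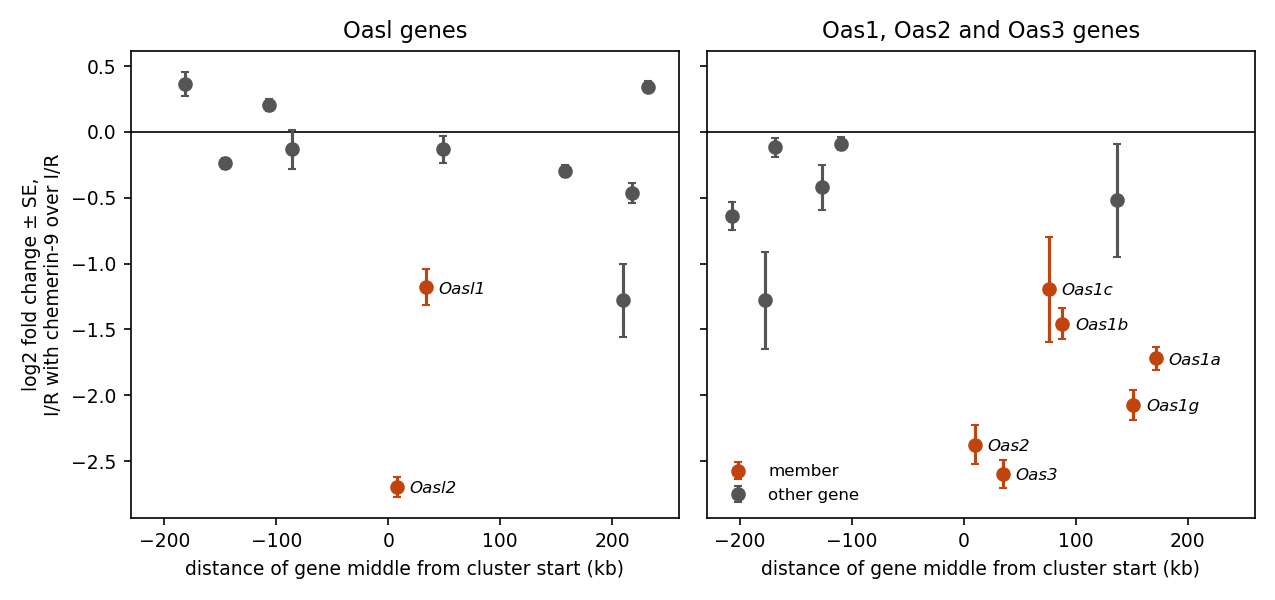
Fitted log2 fold change, I/R with chemerin-9 over I/R, with its standard error, against the distance of each gene's middle from the start of its cluster in kb. Orange points are members and grey points other tested genes within 200 kb. Members lie between -1.18 and -2.70, and the other genes between -1.28 and 0.36.

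Downstream of the synthetases, both genes tested were higher with chemerin-9. Pde12, a phosphodiesterase that degrades 2-5A, rose to 47.0 ± 1.29 CPM with chemerin-9, against 34.6 ± 0.981 CPM in I/R (log2 fold change 0.44, adjusted p = 2.3e-05, edgeR). Abce1, a ribosome recycling factor also known as an inhibitor of the 2-5A response, rose to 541 ± 7.10 CPM, against 418 ± 18.2 CPM in I/R (log2 fold change 0.37, adjusted p = 5.9e-07, edgeR). So 2 of 2 genes passed as higher, where 25.6% of the tested genes were called higher.

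**Figure D5:**
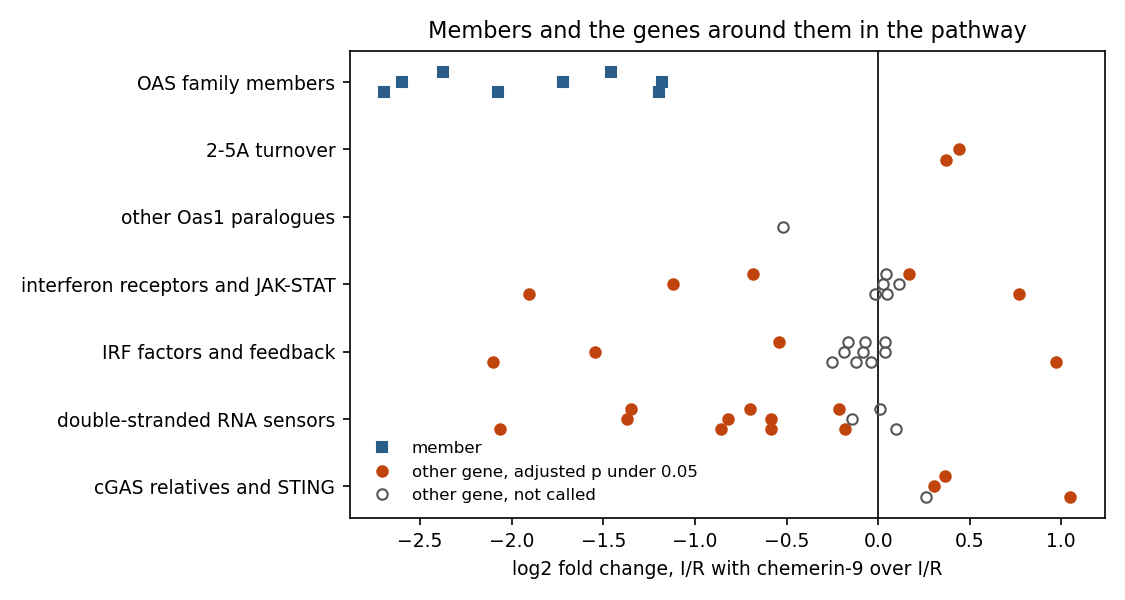
Fitted log2 fold changes, I/R with chemerin-9 over I/R, of the members (squares) and of the tested genes in each pathway list (circles, filled where the adjusted p was under 0.05). Filled circles of the list labelled double-stranded RNA sensors, which also holds signalling genes, all lie below 0. Those of the cGAS relatives and STING all lie above 0, and the interferon receptor and JAK-STAT list holds both.

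Upstream, the ligands were at the detection limit. Of 21 interferon genes looked for, 3 had a row. Ifnb1, interferon beta, had 1 count in all with chemerin-9 and 1 in I/R, and Ifnab had 0 and 3 counts in these groups. Ifne, an epithelial type I interferon, had 11 and 2 counts, and none of the 3 passed the filter. A difference in these ligands was not detectable at this depth.

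Among the receptor and JAK-STAT genes reported here, 3 of 10 tested fell and 2 rose, shares near the background of 26.1% lower and 25.6% higher over all tested genes. Stat2, a subunit of the complex that binds interferon-stimulated response elements, fell to 28.4 ± 2.03 CPM with chemerin-9, against 107 ± 4.89 CPM in I/R (log2 fold change -1.91, adjusted p = 6.2e-12, edgeR). Its partner Irf9 fell by 1.12 on the log2 scale, and the receptor kinase gene Tyk2 fell by 0.68. In contrast Ifnar2, the high-affinity chain of the type I receptor, rose to 10.5 ± 0.622 CPM with chemerin-9, against 6.13 ± 0.524 CPM in I/R (log2 fold change 0.77, adjusted p = 1.7e-04, edgeR). Its partner chain Ifnar1 held 71.9 ± 2.43 CPM with chemerin-9 and 72.7 ± 3.64 CPM in I/R and was not called (adjusted p = 0.83, edgeR). The kinase gene Jak2 also passed as higher (log2 fold change 0.17, adjusted p = 0.042, edgeR), but its call was lost without each of 5 libraries in turn, the exception being I/R replicate 1, and with DESeq2, over a range of 0.0069 to 0.23 in all alternatives. Without any one of those 5 libraries the list held 1 higher gene. The receptor chains and Jak2 were named after their values were seen.

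Of 13 tested IRF and feedback genes, 3 fell and 1 rose, and over all tested genes 26.1% were called lower and 25.6% higher, so the share of the list called lower is near the background. Irf7, the amplifier of interferon transcription and the messenger that Oasl1 is known to hold back in mice, fell to 10.4 ± 1.88 CPM with chemerin-9, against 44.97 ± 1.25 CPM in I/R (log2 fold change -2.10, adjusted p = 5.2e-10, edgeR). Usp18, which removes ISG15 and blunts the receptor, fell by 1.55 on the log2 scale. Irf8, a myeloid factor, rose to 8.61 ± 0.248 CPM, against 4.43 ± 0.851 CPM in I/R (log2 fold change 0.97, adjusted p = 1.5e-04, edgeR). Irf5, named after its values were seen, was the remaining gene that passed as lower (log2 fold change -0.54), a call lost without I/R with C9 replicate 1 or 3, without I/R replicate 3 and with DESeq2, with adjusted p of 0.010 to 0.15 over the alternatives.

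The list of double-stranded RNA sensors, some of which meet the same kind of ligand as OAS, also held signalling genes. Among these were Trim25, Mavs, Ticam1, Ikbke and Tbk1, so its counts are not counts of sensors alone. The list had 10 of 13 tested genes lower and none higher, beside 26.1% lower and 25.6% higher over all tested genes. The 3 not called were Tlr3 (log2 fold change 0.10, adjusted p = 0.74, edgeR), Adarb1 and Tbk1, named after their values were seen. The median log2 fold change of the list was -0.59, beside -0.0037 over all tested genes. Trim25, the ubiquitin ligase that acts on RIG-I, fell to 75.95 ± 5.42 CPM with chemerin-9, against 194 ± 3.11 CPM in I/R (log2 fold change -1.35, adjusted p = 2.0e-11, edgeR). Rigi, the cytosolic sensor itself, fell by 0.82 on the log2 scale, and Eif2ak2, which encodes the kinase PKR, fell by 0.59. Adar, named after its values were seen, was among the 10, but its call was lost in 7 of 12 alternatives, among them the removal of any library other than I/R replicate 1 (adjusted p of 0.0073 to 0.16 over all alternatives). Without those libraries in turn the list had 9 lower genes.

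The OAS fold is shared with cGAS, the DNA sensor that makes a cyclic dinucleotide for STING. Cgas rose to 27.6 ± 1.46 CPM with chemerin-9, against 21.3 ± 2.53 CPM in I/R (log2 fold change 0.36, adjusted p = 0.0043, edgeR). Sting1, which encodes the receptor for that dinucleotide, rose by 0.30 on the log2 scale (adjusted p = 0.0014, edgeR), and Enpp1, which degrades the cyclic dinucleotide, rose by 1.05 (adjusted p = 0.0018, edgeR). In all, 3 of 4 tested genes of this list passed as higher and none as lower, beside 25.6% called higher over all tested genes. Mb21d2 was the one that did not pass, with a log2 fold change of 0.26, and it was named after its values were seen.

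Of the pathway genes named by their rank in each list, 11 had a promoter window, and 2 of them held GAAANNGAAA. These were Stat2 and Eif2ak2, with 1 match each, while the windows of Irf7, Irf9, Tyk2, Trim25, Cgas, Pde12, Abce1, Irf8 and Enpp1 held none. Oas1h and Oas1f, paralogues of the members, held none either.

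Genes outside the family were also ranked by how close their profile lay to it, which mostly reflects the size of the group difference. The measure was the Euclidean distance, over the 6 libraries, between a gene's log2 CPM centred on its own mean and the mean centred profile of the members. The closest were Ccn2, a matricellular protein gene, at a distance of 0.0716, Tfrc, the transferrin receptor gene, at 0.146, Rtp4, a receptor transporter protein gene, at 0.179, the predicted gene Gm37689 at 0.198 and the hormone gene Fgf21 at 0.217. The members themselves lay at 0.301 (Oas1a) to 1.19 (Oas1c) from their own mean. Ccn2 held 23.3 ± 0.684 CPM with chemerin-9 and 82.8 ± 3.76 CPM in I/R, and Tfrc held 72.97 ± 1.91 CPM with chemerin-9 and 275 ± 9.16 CPM in I/R. Rtp4 held 14.4 ± 0.913 CPM with chemerin-9 and 50.2 ± 0.701 CPM in I/R. Of the 5, Gm37689 was the weakest, at 0.231 ± 0.027 CPM with chemerin-9 and 1.31 ± 0.121 CPM in I/R. Like Oas1c, this gene passed the filter on low counts only through its I/R libraries, so Gm37689 had to be higher there to be ranked. Its fitted log2 fold change was -2.47, which the prior count of 2 shrinks in this distance.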

How the data were processed

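The authors deposited whole-number counts per gene symbol for 6 libraries, whose totals differ, so they were taken as raw counts. The submitters' processing notes name HISAT2, HTSeq, DESeq 1.18.1 and mm10. Per the labels' protocols the libraries were made with a stranded mRNA kit. Annotation release and strand setting: not given in the sources used here, and values of overlapping and antisense genes are uncertain. Of 25216 rows, 27 repeated a symbol with the same counts and were dropped.

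Titles set the groups and replicate numbers. Where the treatment entries count up from C9, the titles, which read C9 throughout, were followed. Counts were fitted with edgeR 4.0.16 (R 4.3.3), TMM factors, filterByExpr by group and a quasi-likelihood fit on group, with Benjamini-Hochberg adjustment over 14184 genes at 0.05. CPM are counts over the TMM-adjusted library size. Log2 CPM used a prior count of 2. Transcript alignment, shared windows and motif searches used Biopython 1.88 on GENCODE M21 and RefSeq sequences. The fit was tested on simulated data with the same spread for every gene and few genes changed. That is a simpler setting than these data, so the test does not show how the fit performs here. Alternatives were RLE factors, unadjusted library totals, DESeq2 1.42.0, limma 3.58.1 (voom), no filter, the replicate number as a block, and each library left out in turn.

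The members, the pathway lists and the rule for named genes were chosen with earlier results of these data known. The rule took all members, the 3 genes with the smallest p of each pathway list, all genes of lists of at most 4, and the 5 genes closest to the members' mean profile. Some pathway genes are not reported here and were left out of the lists, though not out of the fit.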

Additional observations from a re-analysis of the deposited data

How the results depend on the processing

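All 8 members kept a negative fold change under each of the 12 alternatives, and their median stayed between -1.94 and -1.83. The number of members called was 7 with DESeq2 and 7 to 8 when 1 library was left out. Oas1c was the member lost, with DESeq2 and without each library other than I/R replicate 1 (adjusted p of 0.053 to 0.101). The number of genes changed was 7336, between 6312 and 7747 over the alternatives. Scaling by library totals alone gave 4473 higher and 2891 lower genes, against 3637 and 3699 with TMM. In the interferon receptor and JAK-STAT list, 4 genes were higher with library totals, 1 with DESeq2 and 1 to 2 when 1 library was left out, against 2 as reported. The call lost with DESeq2 or on leaving out a library was that of Jak2. The cause of the further calls with library totals was not tested. Oas1h had a log2 fold change of 0.046 when I/R replicate 1 was left out and -0.91 when I/R replicate 3 was, against -0.52 with all libraries. Pairing by replicate number was not seen, though these values cannot exclude it. Deviations of same-numbered libraries from their group means correlated at 0.102, -0.052 and 0.042, and those of differently numbered libraries at -0.140 to 0.108. With the replicate block 7300 genes were called and 8 members. Depth limits Oas1c, Oas1d, Oas1h and the interferon ligands.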
